A study of Mus musculus with 38 samples.

Results

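The 39 genes described here encode enzymes that make serine, one-carbon units carried by folate, purine and pyrimidine nucleotides, deoxynucleotides, polyamines and the amino acids that feed them. They were chosen by symbol and role, with earlier results of these data known, and all 39 were present among the 24028 genes of the count table and among the 13650 genes that passed the filter on low counts. By role they were 3 serine synthesis genes, 6 folate genes, 11 genes of purine synthesis, 2 of purine salvage, 3 of pyrimidine synthesis, 5 of deoxynucleotide supply, 3 amino acid enzymes, and 6 genes of polyamine and methionine metabolism.

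A resting T cell makes little DNA and takes much of its nucleotide pool from salvage. After its antigen receptor and the costimulatory receptor CD28 are engaged, it grows before it divides, and serine-derived one-carbon units then supply carbon for purine rings and for thymidylate, while ornithine decarboxylase opens the polyamine pathway. The miR-17~92 cluster is a microRNA polycistron that is induced in activated T cells and lowers its target mRNAs through seed pairing in their 3′ untranslated regions.

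RNA was measured by poly(A)-selected, stranded sequencing in naive CD4+ T cells of mouse and in the same kind of cell after 24 h of culture. The 5 genotypes gave 10 groups of 4 libraries, except that both rescue groups held 3, for 38 libraries in all. The CD28-/- mice lack CD28. The rescue mice lack CD28 and also carry CD4cre and a CAG-driven miR-17~92 transgene, inserted at Rosa26 behind a loxP-flanked stop. The T1792delta/delta mice carry CD4cre with loxP-flanked miR-17~92 alleles, so that the cluster is deleted in T cells. The T1792tg/tg mice carry CD4cre and the same Rosa26 transgene on a CD28-sufficient background, and wild-type (wt) mice served as controls. No genotype carried CD4cre alone, so effects of the recombinase or of the line cannot be told apart from those of the cluster. Each library came from the pooled lymph nodes and spleen of a single mouse, of either sex, whose age the labels do not state. Antibodies to CD3 (0.5 µg/ml) and to CD28 (0.2 µg/ml) were bound to the plates of all 24 h groups, CD28-/- included, and interleukin-2 was added at 50 U/ml. There was no culture without stimulation, so a difference between 24 h and naive cells holds the effects of culture and interleukin-2 as well.

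Libraries held 19427291 to 28020721 counted reads. The 6 T cell markers summed to 2789 to 3013 CPM (a gene's counts as a share of the library, after TMM scaling) in CD28-/- cultures and 2005 to 2379 CPM in wt cultures, and to 4277 to 4988 CPM over all naive libraries, while 6 myeloid markers summed to 4.16 to 8.45 CPM over all cultures and 71.2 to 229 CPM over all naive libraries, and 4 B cell markers to 18.2 to 72.8 CPM over all cultures and 103 to 427 CPM over all naive libraries. The microRNA annotation Mir17 was counted at 4.91 to 8.54 CPM in naive rescue, 0 to 0.152 CPM in naive T1792delta/delta and 5.78 to 7.85 CPM in naive T1792tg/tg cells, against 0.0885 to 0.564 CPM in naive CD28-/- and 0.206 to 0.441 CPM in naive wt cells, which is the order the labels imply. Cd28 was counted at 506 to 598 CPM in CD28-/- and 292 to 377 CPM in wt cultures, so counts over the whole gene do not check the CD28-/- label. The 3 red cell markers summed to 1179 to 5047 CPM in naive T1792delta/delta and 310.3 to 949 CPM in naive wt cells. Sex-linked transcripts marked all CD28-/- and rescue libraries as female, 3 of 4 wt libraries in each state, 2 of 4 T1792delta/delta and 1 of 4 T1792tg/tg libraries.

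The mature microRNAs of the cluster are shown because the genotypes differ in them. They are RefSeq sequences (GRCm38.p6, chromosome 14, plus strand), with the seed, bases 2 to 8 from the 5′ end, in capitals.
mmu-miR-17-5p: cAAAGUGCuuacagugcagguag
mmu-miR-20a-5p: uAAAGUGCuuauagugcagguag
mmu-miR-18a-5p: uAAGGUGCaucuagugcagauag
mmu-miR-19a-3p: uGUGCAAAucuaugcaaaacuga
mmu-miR-19b-3p: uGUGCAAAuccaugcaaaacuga
mmu-miR-92a-3p: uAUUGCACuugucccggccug
miR-17 and miR-20a share a seed, as do miR-19a and miR-19b, while miR-18a and miR-92a each have their own. A 7-base match to at least 1 of these seeds lay in the longest annotated 3′ untranslated region (GENCODE vM21) of 14 of the 39 genes, or 35.9%, against 34.5% of 12678 tested genes with such a region. The 14 were Shmt2, Prps2, Gart, Impdh1, Gmps, Hprt, Dhodh, Umps, Rrm1, Rrm2, Bcat1, Bcat2, Ahcy and Mtap.

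Nearly the whole gene set rose in wt cells after 24 h of stimulation. At 24 h, 37 of 39 genes were called higher and 0 lower (adjusted p below 0.05, edgeR quasi-likelihood test), against 41.3% of all tested genes called higher and 43.9% called lower, or 85.2% in either direction. The median log2 fold change was 2.44 over the 39 genes and -0.06 over all tested genes. The 39 genes together held 11899 ± 493 CPM at 24 h and 2554 ± 61.7 CPM in naive wt cells (SD, n = 4 each). CPM measures a share of each library, and in bulk samples fewer cells of a type and less RNA per cell cannot be told apart. The summed level of 8 cell division genes was 3642 to 4373 CPM at 24 h and 424 to 507 CPM in naive wt cells. The 4 B cell markers, all called lower, summed to 22.6 to 58.2 CPM at 24 h and 136 to 282 CPM in naive wt cells, and the 6 myeloid markers, also all called lower, to 4.42 to 7.33 CPM at 24 h and 94.6 to 135 CPM in naive wt cells. The part of these lists in the response was not tested.

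**Figure D1:**
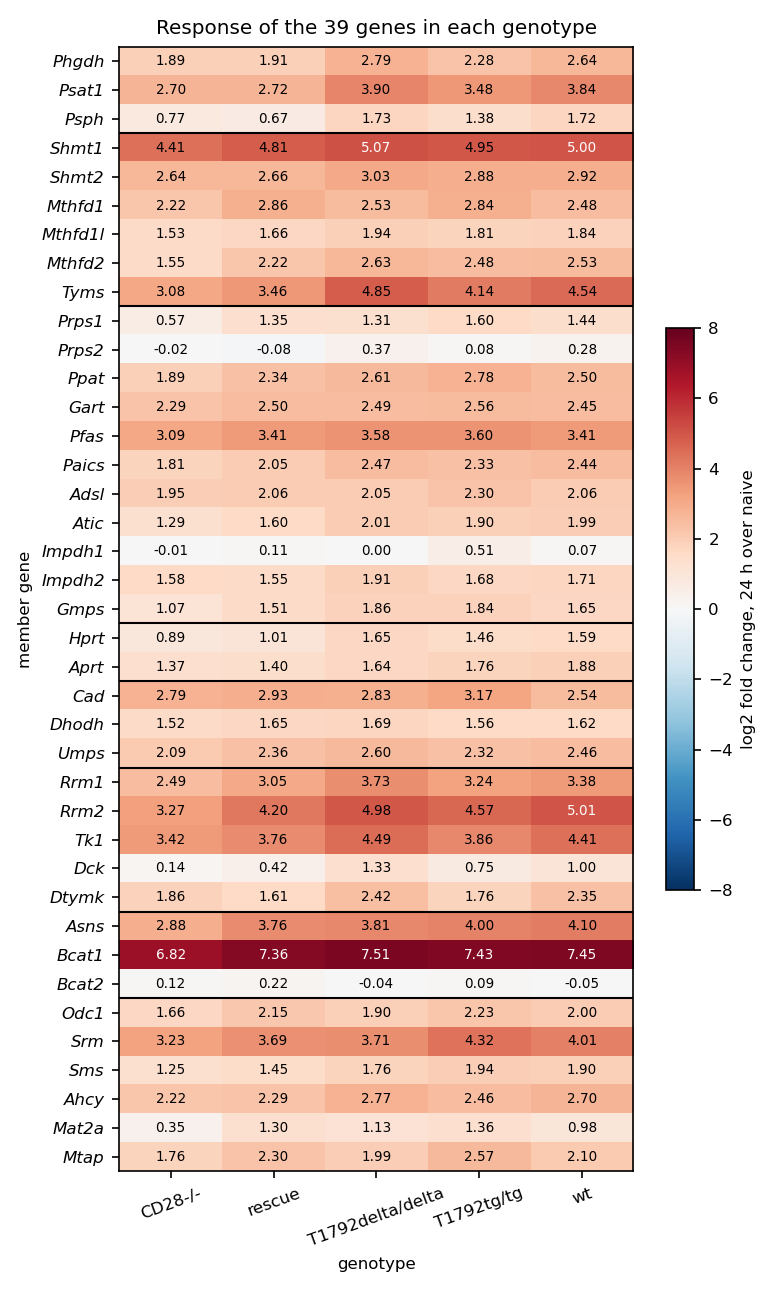
Log2 fold change of each of the 39 genes (rows, in blocks by role) at 24 h over naive cells, for the 5 genotypes (columns), with the value printed in each cell. Bcat1 has the largest value in every column, from 6.82 in CD28-/- to 7.51 in T1792delta/delta cells, and Impdh1, Prps2 and Bcat2 stay near 0 in most columns.

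All 3 serine synthesis genes rose in wt cells. Psat1 (chr19:15905123-15925059), the aminotransferase of the pathway, had 523, 489, 479 and 447 CPM at 24 h, against 35.0, 29.8, 31.8 and 38.7 CPM in naive cells. Its lowest 24 h library was far above its highest naive library (log2 fold change 3.84 ± 0.09, standard error (SE), adjusted p = 5.5e-29). Phgdh, which draws 3-phosphoglycerate from glycolysis into the pathway, rose by 2.64 ± 0.08 on the log2 scale, and Psph, the phosphatase that releases serine, by 1.72 ± 0.11.

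The 6 folate genes all rose as well. Shmt1 (chr11:60788897-60811265), the cytosolic serine hydroxymethyltransferase, had the smallest p of the set, with 283, 275, 263 and 249 CPM at 24 h and 9.16, 8.21, 7.24 and 8.90 CPM in naive wt cells. That is a log2 fold change of 5.00 ± 0.10 (adjusted p = 8.0e-31), with no overlap between the groups. Its mitochondrial counterpart Shmt2 had 668, 631, 632 and 591 CPM at 24 h and 78.0, 81.3, 81.7 and 91.4 CPM in naive cells, a difference of 2.92 ± 0.07 (adjusted p = 2.6e-28). Mthfd1 (chr12:76254406-76319820), the trifunctional cytosolic enzyme that charges folate with formate, had 423, 415, 406 and 361 CPM at 24 h and 73.7, 69.9, 72.1 and 71.6 CPM in naive cells (2.48 ± 0.06, adjusted p = 2.1e-28), and again no 24 h library came near a naive one. Tyms, thymidylate synthase, rose by 4.54 ± 0.19, Mthfd2, the mitochondrial methylenetetrahydrofolate dehydrogenase of growing cells, by 2.53 ± 0.07, and Mthfd1l, which releases formate in mitochondria, by 1.84 ± 0.07. A processed copy of Tyms, Tyms-ps, held 2800 counts over all libraries, and how multi-mapping reads were handled is not given in the sources used here, so the Tyms value carries that doubt.

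Of the 11 purine synthesis genes, 10 rose. Ppat, the amidotransferase that commits ribose phosphate to the purine pathway, had 261, 259, 258 and 251 CPM at 24 h and 44.4, 44.4, 43.8 and 48.8 CPM in naive wt cells, a difference of 2.50 ± 0.05 (adjusted p = 1.5e-29). Pfas, which catalyses the fourth step, had 352, 348, 379 and 371 CPM at 24 h and 31.8, 34.7, 36.9 and 32.8 CPM in naive cells, the steepest rise of the branch at 3.41 ± 0.08 (adjusted p = 6.1e-29). Neither gene overlapped between states. Among the others the log2 fold change ran from 0.28 for Prps2, a ribose-phosphate pyrophosphokinase that supplies the pathway, to 2.45 for the trifunctional enzyme Gart. The exception was Impdh1, an IMP dehydrogenase at the branch to guanine nucleotides, with 0.07 ± 0.06 (adjusted p = 0.30); its paralogue Impdh2 rose by 1.71 ± 0.06. Ppat (chr5:76913249-76951578) and Paics (chr5:76951302-76967509), a bifunctional enzyme of the same pathway, lie head to head and overlap by annotation, and the strand setting of the counting is not stated, so reads in the overlap may have been credited to either. The salvage genes Hprt and Aprt, which recover purine bases, rose by 1.59 ± 0.09 and 1.88 ± 0.08.

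The pyrimidine genes Cad, which carries the opening steps of UMP synthesis, the mitochondrial dehydrogenase Dhodh and Umps, which completes UMP, rose by 2.54 ± 0.12, 1.62 ± 0.07 and 2.46 ± 0.12. All 5 genes of deoxynucleotide supply rose. Rrm2, the small subunit of ribonucleotide reductase, gained 5.01 ± 0.27 on the log2 scale, thymidine kinase Tk1 4.41 ± 0.33, and the large subunit Rrm1 3.38 ± 0.12. Thymidylate kinase Dtymk rose by 2.35 ± 0.09, and deoxycytidine kinase Dck by 1.004 ± 0.07.

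Among the amino acid enzymes Bcat1 (chr6:144993835-145076157), the cytosolic branched-chain aminotransferase, had the largest fold change of the 39 genes. It had 248, 248, 233 and 240.0 CPM at 24 h, against 1.71, 1.53, 1.25 and 1.02 CPM in naive wt cells (7.45 ± 0.15, adjusted p = 3.6e-30), so every 24 h library lay far above every naive one. Asparagine synthetase Asns rose by 4.10 ± 0.48, while the mitochondrial aminotransferase Bcat2 was not called (-0.05 ± 0.07, adjusted p = 0.54). In the polyamine branch, spermidine synthase Srm (chr4:148591513-148594619) had 574, 577, 549.7 and 534 CPM at 24 h and 37.2, 31.9, 32.5 and 37.4 CPM in naive cells, again without overlap (4.01 ± 0.09, adjusted p = 1.0e-29). Ornithine decarboxylase Odc1 rose by 2.005 ± 0.13, spermine synthase Sms by 1.90 ± 0.07, and Mtap, which recycles the methylthioadenosine that polyamine synthesis leaves, by 2.10 ± 0.06. Ahcy, which clears S-adenosylhomocysteine, rose by 2.70 ± 0.09, and Mat2a, which makes S-adenosylmethionine, by 0.98 ± 0.11.

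The other genotypes raised the set too. Called higher were 35 genes in CD28-/- cells (39.7% of tested genes), 37 in rescue cells (38.8%), 37 in T1792delta/delta cells (41.4%) and 37 in T1792tg/tg cells (41% of tested genes), and 0 were called lower in any of the 4 genotypes, where 40.8% to 44.1% of all tested genes were. Of all tested genes 80.9% were called in either direction in CD28-/- cells, 79.7% in rescue, 85.1% in T1792delta/delta and 85.1% in T1792tg/tg cells. The median log2 fold change of the 39 genes was 1.86 in CD28-/- cells, 2.15 in rescue, 2.47 in T1792delta/delta and 2.32 in T1792tg/tg cells. Shmt1 and Bcat1 were among the 3 genes with the smallest p in every genotype. Shmt1 had 185, 199.5, 191 and 196 CPM at 24 h and 9.07, 8.91, 9.11 and 9.27 CPM in naive CD28-/- cells, with 4.41 ± 0.09 on the log2 scale, against 5.00 ± 0.10 in wt. Bcat1 had 150.2, 167, 162 and 147 CPM at 24 h and 1.42, 1.76, 1.39 and 0.922 CPM in naive CD28-/- cells (6.82 ± 0.15), again without overlap. Pfas had 267, 286, 277 and 243 CPM at 24 h and 27.6, 33.9, 34.1 and 30.6 CPM in naive CD28-/- cells (3.09 ± 0.08), and 415, 353, 420.4 and 391 CPM at 24 h and 33.1, 35.8, 32.3 and 30.4 CPM in naive T1792delta/delta cells (3.58 ± 0.08). No 24 h library of these genes overlapped a naive one. Srm rose by 3.23 ± 0.08 in CD28-/- cells and by 4.32 ± 0.09 in T1792tg/tg cells, where it had 612, 651, 587 and 631 CPM at 24 h and 31.4, 31.5, 30.6 and 30.6 CPM in naive cells. Ppat rose by 2.61 ± 0.06 in T1792delta/delta and by 2.78 ± 0.06 in T1792tg/tg cells, and Mthfd1 by 2.86 ± 0.07 in rescue cells. The genes not called in CD28-/- cells were Prps2 (-0.02 ± 0.09), Impdh1 (-0.01 ± 0.06), Dck (0.14 ± 0.07) and Bcat2 (0.12 ± 0.07). Dck had 74.0, 68.5, 70.9 and 67.9 CPM at 24 h and 59.7, 65.0, 62.9 and 67.4 CPM in naive CD28-/- cells.

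Several enzymes of the set come in pairs, and their balance changed with stimulation. Levels between genes are compared per length, as CPM per kilobase of the length deposited with the counts. Among the 39 genes, Mat2a, Odc1 and Hprt stood highest per length in naive wt cells (86.2 ± 9.63, 74.6 ± 17.7 and 72.0 ± 7.65 CPM per kb, SD, n = 4), and Srm, Odc1 and Shmt2 at 24 h (421 ± 15.5, 299 ± 5.59 and 274 ± 13.7 CPM per kb). At 24 h Srm lay above all other members in every wt library. The ratio of Shmt2 to Shmt1 per length was 2.40 ± 0.0471 at 24 h and 10.2 ± 1.17 in naive wt cells. Impdh2 was below Impdh1 in naive wt cells and above it at 24 h, with ratios of 2.19 ± 0.1097 at 24 h and 0.707 ± 0.0383 in naive cells. Bcat2 to Bcat1 stood at 0.770 ± 0.0253 at 24 h and 144 ± 29.7 in naive wt cells. The same ratio was 1.24 ± 0.103 in CD28-/- cultures, so per length Bcat2 was still the higher of the pair there. By CPM alone that ratio was 0.503 ± 0.0418, so the order rests on the deposited lengths. Prps1 to Prps2 was 1.45 ± 0.0386 in CD28-/- and 2.40 ± 0.0602 in wt cultures, and 0.965 ± 0.0770 and 1.10 ± 0.193 in naive cells of the same genotypes.

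**Figure D2:**
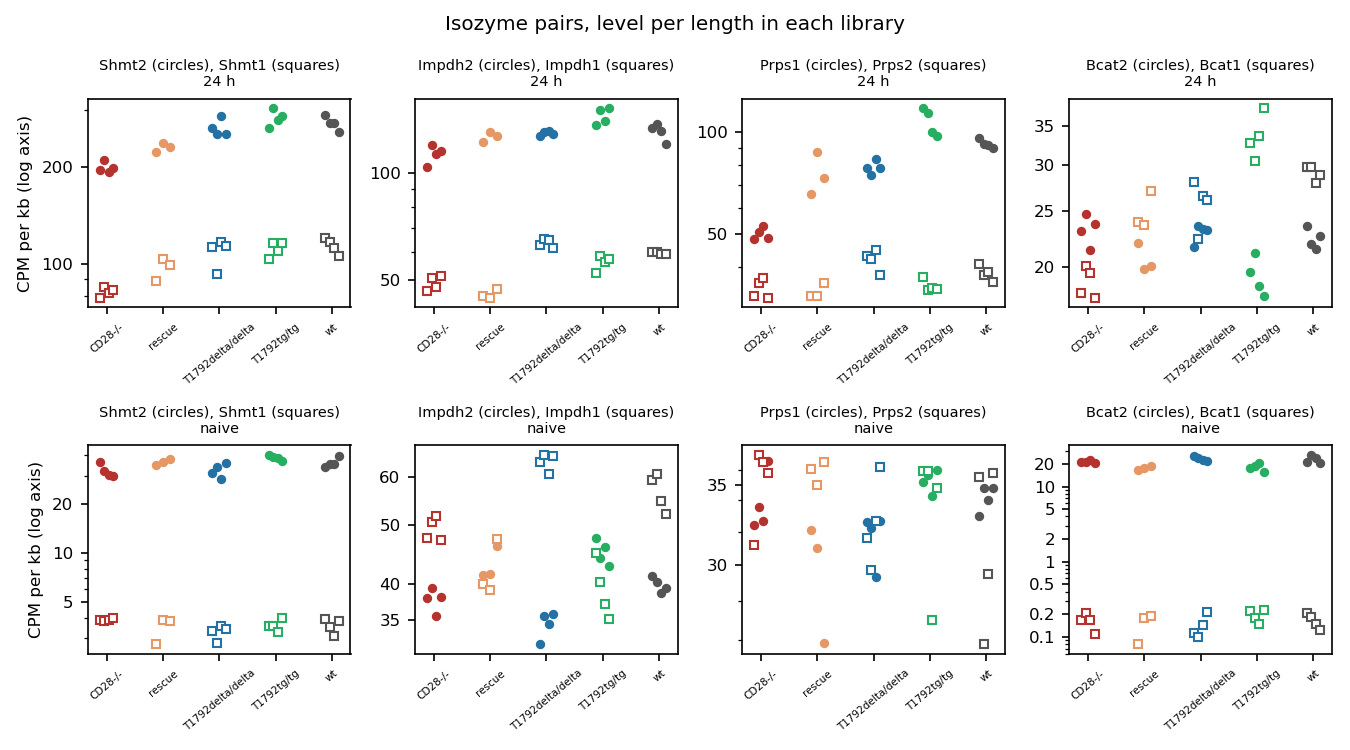
Level per length (CPM per kb, log axis) of 4 isozyme pairs in every library, at 24 h (top row) and in naive cells (bottom row), by genotype. Filled circles and open squares separate widely for Shmt2 and Shmt1 in both states, while Impdh1 lies above Impdh2 in naive wt cells and below it at 24 h.

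Without CD28, most genes of the set were lower at 24 h, and each branch held genes called lower. In CD28-/- against wt cultures 36 of 39 genes were called lower and 0 higher, where 27.8% of tested genes were called lower and 23.7% higher. The median log2 fold change was -0.46 over the 39 genes and -0.03 over all tested genes, and the summed level was 8189 ± 231 CPM in CD28-/- and 11899 ± 493 CPM in wt cultures (SD, n = 4 each). The cell division genes summed to 2873 to 2982 CPM in CD28-/- and 3642 to 4373 CPM in wt cultures, with 6 of 8 called lower, and 4 regulatory T cell markers, all called lower, to 95.9 to 132 CPM in CD28-/- and 185 to 204 CPM in wt cultures. NK and CD8 T cell markers summed to 24.0 to 26.1 CPM in CD28-/- and 27.8 to 38.5 CPM in wt cultures, with 4 of 6 called lower and 1 higher. Of the 6 T cell markers 5 were called higher and 0 lower. The part of these lists in the difference was not tested.

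Mthfd2 (chr6:83305704-83326011) had the smallest p. It had 109.9, 121, 113 and 113 CPM in CD28-/- cultures, against 285, 282, 272 and 257 CPM in wt cultures, a log2 fold change of -1.26 ± 0.07 (adjusted p = 8.5e-17). No CD28-/- library came near the wt ones. The other mitochondrial and cytosolic folate genes differed less, from -0.29 for Mthfd1l to -0.47 for Shmt1, except Tyms at -1.32 ± 0.16, which had 73.4, 60.1, 61.6 and 63.9 CPM in CD28-/- and 168, 181, 161 and 137 CPM in wt cultures.

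The serine synthesis genes fell together. Phgdh (chr3:98313171-98339969) had 127, 139, 123 and 141 CPM in CD28-/- and 244, 220.3, 227 and 211 CPM in wt cultures (-0.77 ± 0.07, adjusted p = 5.4e-11). Psat1 had 255, 287, 269 and 272 CPM in CD28-/- and 523, 489, 479 and 447 CPM in wt cultures (-0.84 ± 0.08, adjusted p = 7.3e-11). Both were lower in every CD28-/- library than in any wt library, and Psph differed by -0.70 ± 0.11.

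In purine synthesis 10 of 11 genes fell, most of them modestly. Prps1 (chrX:140456603-140476140) had 95.6, 100.5, 104 and 96.1 CPM in CD28-/- and 189, 182, 181 and 177 CPM in wt cultures (-0.88 ± 0.07, adjusted p = 1.3e-12). Its paralogue Prps2 was not called, with 120.1, 131, 135 and 119 CPM in CD28-/- and 149, 139, 141 and 132 CPM in wt cultures (-0.15 ± 0.09, adjusted p = 0.14). Ppat had 173, 186, 188 and 185 CPM in CD28-/- and 261, 259, 258 and 251 CPM in wt cultures (-0.49 ± 0.05, adjusted p = 8.0e-10). Prps1 and Ppat separated the groups fully, while the Prps2 libraries overlapped. The remaining called genes of the branch lay between -0.57 for Atic, which closes the IMP ring, and -0.21 for Adsl, the lyase used in IMP and AMP synthesis. The salvage genes Aprt and Hprt stood at -0.60 ± 0.08 and -0.40 ± 0.08.

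Among pyrimidine genes Dhodh (-0.38 ± 0.06) and Umps (-0.30 ± 0.11) fell, but Cad was not called, with 489, 565, 521 and 497 CPM in CD28-/- and 557, 554, 552 and 470.2 CPM in wt cultures (-0.04 ± 0.11, adjusted p = 0.78). The summed level of this branch overlapped, at 771 to 880 CPM in CD28-/- and 814 to 961 CPM in wt cultures. The deoxynucleotide genes held the largest difference of the set, that of Rrm2, with 147, 127, 128 and 124 CPM in CD28-/- and 484, 495, 460.0 and 392 CPM in wt cultures (-1.80 ± 0.23, adjusted p = 6.2e-08). Dck (chr5:88765013-88783277), which phosphorylates salvaged deoxycytidine, had 74.0, 68.5, 70.9 and 67.9 CPM in CD28-/- and 123, 123, 121 and 109 CPM in wt cultures (-0.76 ± 0.07, adjusted p = 8.2e-11). Neither gene overlapped between the genotypes. Tk1 differed by -1.25 ± 0.27, Rrm1 by -0.75 ± 0.11 and Dtymk by -0.35 ± 0.09.

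Asns, a low transcript, was at 13.3, 11.1, 10.3 and 10.4 CPM in CD28-/- and 37.3, 38.0, 37.7 and 25.9 CPM in wt cultures (-1.62 ± 0.40, adjusted p = 9.8e-04). Bcat1 was lower (-0.63 ± 0.10 on the log2 scale) and Bcat2 was not called (0.05 ± 0.07, adjusted p = 0.55). All 6 polyamine and methionine genes were lower. Srm had 267, 307, 282 and 297 CPM in CD28-/- and 574, 577, 549.7 and 534 CPM in wt cultures (-0.96 ± 0.08, adjusted p = 1.5e-12). Sms (chrX:157443851-157492287) had 84.9, 101, 97.6 and 90.9 CPM in CD28-/- and 158, 152, 146 and 161 CPM in wt cultures (-0.72 ± 0.07, adjusted p = 4.7e-11). Neither overlapped between the genotypes. With sex as a term in the fit the X-linked genes Prps1 and Sms stood at -0.89 and -0.72. Odc1 stood at -0.73 ± 0.13, and Mat2a, Ahcy and Mtap between -0.44 and -0.28.

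**Figure D3:**
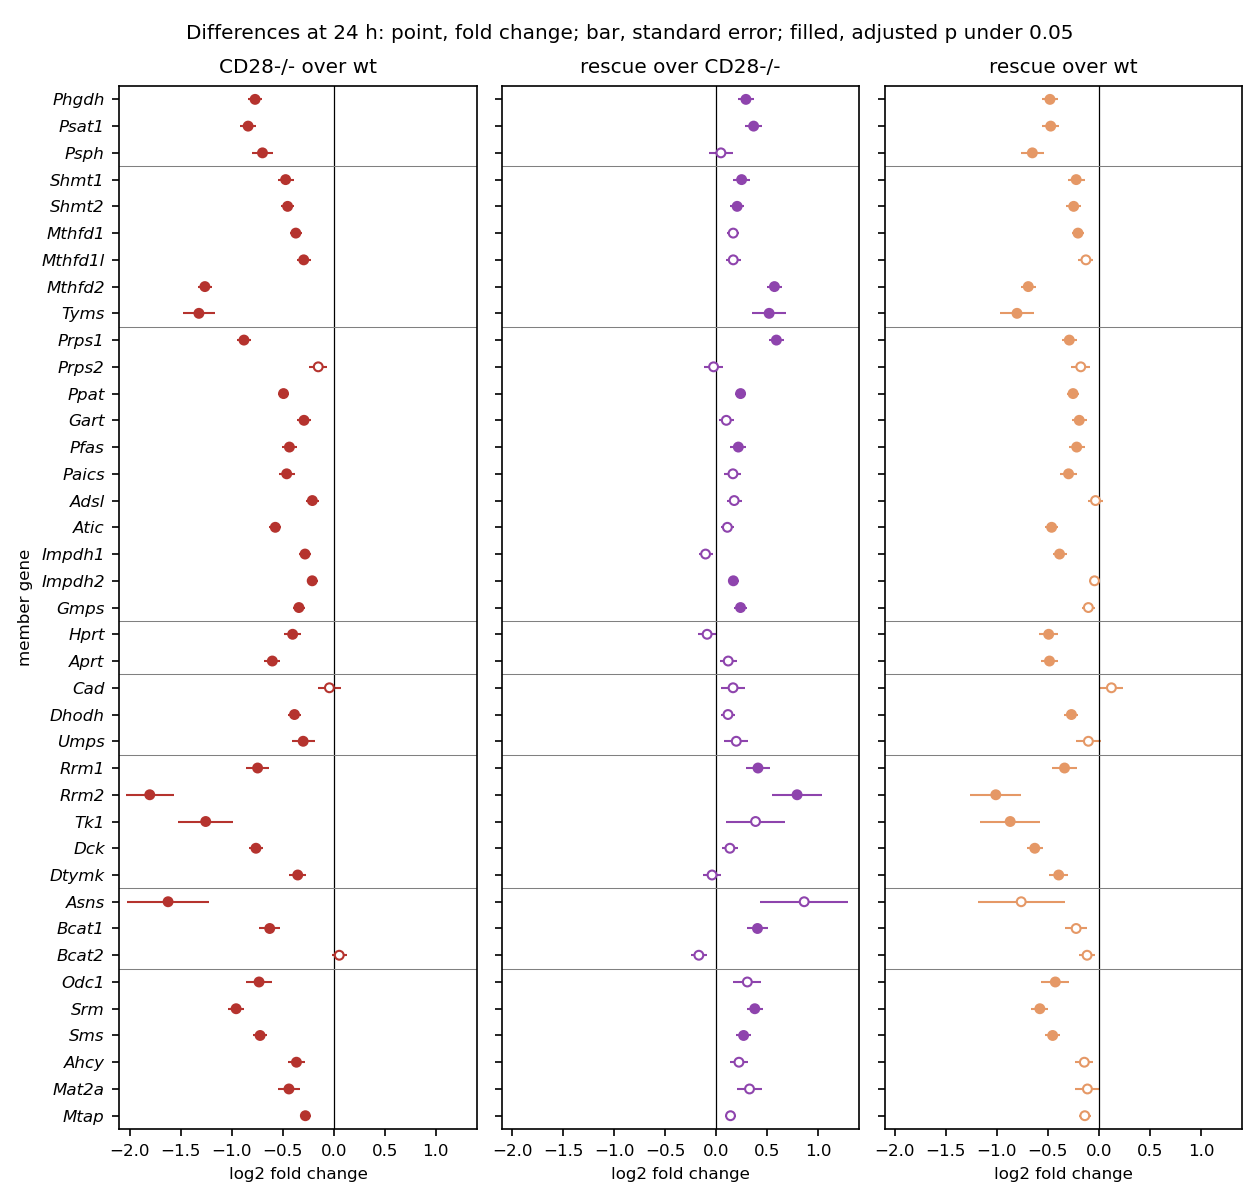
Log2 fold change (x axis) of each of the 39 genes (rows, in blocks by role) at 24 h for CD28-/- over wt, rescue over CD28-/- and rescue over wt. Points are estimates, bars standard errors, and filled points adjusted p below 0.05. In the left panel 36 points are filled and lie left of 0, in the middle panel 16 are filled and lie right of 0, and in the right panel 26 are filled and lie left of 0.

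The miR-17~92 transgene on the CD28-/- background went with a summed level between those of CD28-/- and wt cultures. In rescue against CD28-/- cultures 16 of 39 genes were called higher and 0 lower, where 9.52% of tested genes were called higher and 8.86% lower, 18.4% in all. The median log2 fold change was 0.20 over the 39 genes and 0.01 over all tested genes. Against wt, the rescue cultures still had 26 genes lower and 0 higher (17.7% and 17.4% of tested genes), with a median of -0.29. The summed level was 9599 ± 456 CPM in rescue cultures (n = 3), against 8189 ± 231 CPM in CD28-/- and 11899 ± 493 CPM in wt cultures (n = 4 each). Not every branch lay between. Purine salvage genes summed to 368 ± 15.7 CPM in rescue and 369 ± 14.6 CPM in CD28-/- cultures. Pyrimidine genes summed to 919 ± 30.8 CPM in rescue and 904 ± 63.4 CPM in wt cultures. Cad had 580 ± 14.2 CPM in rescue and 533 ± 42.1 CPM in wt cultures, without overlap and not called (adjusted p = 0.45). Of the 38 genes whose mean was lower in CD28-/- than in wt cultures, the rescue mean lay between the other two for 33 (86.8%), against 57.3% of the 7126 tested genes with the same order. The tested genes were taken at any size of gap between CD28-/- and wt cultures. Of the 39 genes 36 were called lower there, against 27.8% of tested genes. The shares are thus not matched for the gap, and no conclusion is drawn from their difference. The rescue comparisons share their CD28-/- and wt libraries. Cell division genes summed to 3276 to 3749 CPM in rescue and 2873 to 2982 CPM in CD28-/- cultures, with 3 of 8 called higher. T cell markers summed to 2252 to 2545 CPM in rescue and 2789 to 3013 CPM in CD28-/- cultures, with 4 of 6 called lower. Of 4 regulatory T cell markers 2 were called higher and 1 lower. The part of these lists was not tested. Without rescue replicate 2, or without replicate 3, 8 genes in place of 16 were called higher. With the compared groups fitted alone, 25 were called higher and 1 lower, against 16.2% and 15.9% of the genes tested in that fit.

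Mthfd2 again had the smallest p, with 151, 176 and 181 CPM in rescue and 109.9, 121, 113 and 113 CPM in CD28-/- cultures (0.57 ± 0.07, adjusted p = 3.8e-07). Prps1 had 129.7, 172 and 145 CPM in rescue and 95.6, 100.5, 104 and 96.1 CPM in CD28-/- cultures (0.59 ± 0.07, adjusted p = 3.9e-07). Both lay above every CD28-/- library and below every wt library, and both stayed lower than in wt (-0.69 ± 0.07 and -0.29 ± 0.07). In the serine branch Phgdh had 159.6, 165 and 161 CPM in rescue and 127, 139, 123 and 141 CPM in CD28-/- cultures (0.29 ± 0.08, adjusted p = 0.0066). Psat1 had 322, 369.8 and 355 CPM in rescue and 255, 287, 269 and 272 CPM in CD28-/- cultures (0.36 ± 0.08, adjusted p = 0.0019). Their ranges did not overlap, whereas Psph was not called (0.04 ± 0.11).

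Srm had 353, 379 and 389.8 CPM in rescue and 267, 307, 282 and 297 CPM in CD28-/- cultures (0.38 ± 0.08, adjusted p = 9.7e-04). Sms had 109.6, 113 and 115 CPM in rescue and 84.9, 101, 97.6 and 90.9 CPM in CD28-/- cultures (0.27 ± 0.07, adjusted p = 0.0073), so the polyamine synthases of rescue cells separated from those of CD28-/- cells. Ppat had 200.3, 226 and 220.0 CPM in rescue and 173, 186, 188 and 185 CPM in CD28-/- cultures (0.24 ± 0.06, adjusted p = 0.0021). Bcat1 had 199, 197 and 226 CPM in rescue and 150.2, 167, 162 and 147 CPM in CD28-/- cultures (0.40 ± 0.11, adjusted p = 0.0071), a call that was lost without rescue replicate 3 (adjusted p = 0.067). The other genes called higher were Shmt1, Shmt2, Tyms, Pfas, Impdh2, Gmps, which makes GMP, Rrm1 and Rrm2, from 0.17 for Impdh2 to 0.79 for Rrm2.

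In the fit over all groups, most genes of the set showed no call toward wt in rescue cells. Dck had 73.1, 77.3 and 80.8 CPM in rescue and 74.0, 68.5, 70.9 and 67.9 CPM in CD28-/- cultures (0.13 ± 0.08, adjusted p = 0.26), and was lower in rescue than in wt cultures by a log2 fold change of -0.63 ± 0.08 (adjusted p = 1.0e-07). Atic had 332, 345 and 343 CPM in rescue and 476, 458, 467 and 475 CPM in wt cultures (-0.46 ± 0.07, adjusted p = 1.1e-06). Against CD28-/- cultures Atic stood at 0.11 ± 0.07 (adjusted p = 0.28), with every rescue library above every CD28-/- library. Bcat2, Impdh1, Hprt, Dtymk and Prps2 had estimates below 0 against CD28-/- cells, from -0.17 for Bcat2 to -0.03 for Prps2, none of them called. Mthfd2 and Srm were the other genes with the smallest p against wt, Srm at -0.58 ± 0.08 (adjusted p = 1.2e-06).

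**Figure D4:**
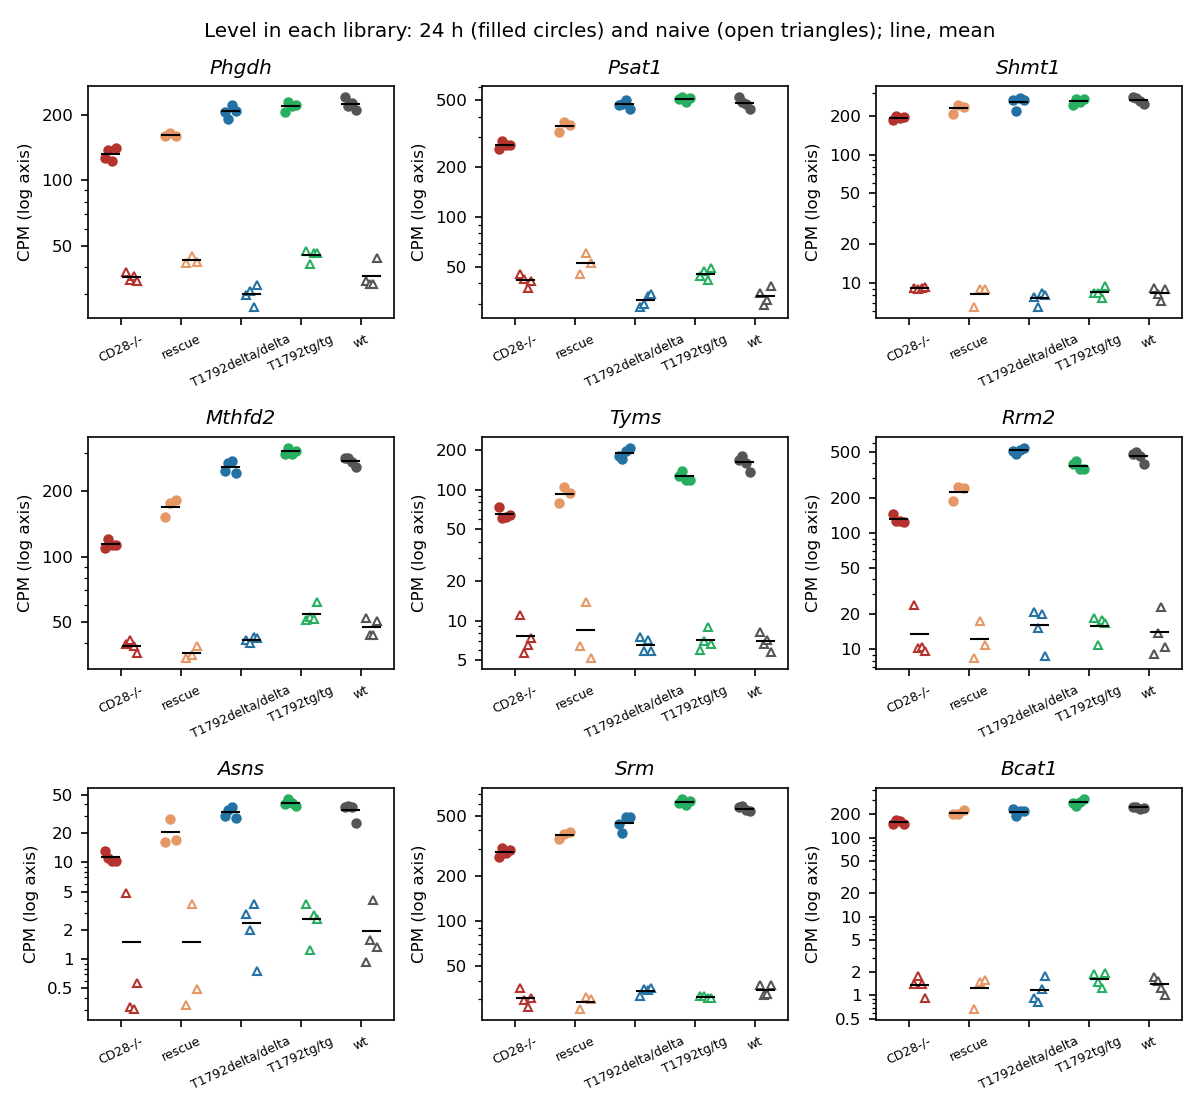
CPM (log axis) of 9 of the genes in every library, by genotype, with 24 h libraries as filled circles, naive libraries as open triangles and lines at the group means. At 24 h the CD28-/- mean is the lowest and the rescue mean the next in each of the 9 panels.

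On a CD28-sufficient background, 5 of these genes were called with loss of the cluster and 4 with its gain at 24 h. In T1792delta/delta against wt cultures 2 genes were called higher and 3 lower (7.77% and 8.47% of tested genes), and in T1792tg/tg against wt cultures 1 higher and 3 lower (6.1% and 6.45%). The summed level was 12085 ± 574 CPM in T1792delta/delta, 12109 ± 291 CPM in T1792tg/tg and 11899 ± 493 CPM in wt cultures (SD, n = 4 each). In either direction, 16.2% of tested genes were called in T1792delta/delta and 12.5% in T1792tg/tg against wt cultures. With T1792tg/tg and wt cultures fitted alone, 6 genes were called higher and 7 lower, 33.3% of the 39, against 22.3% of the genes tested in that fit. Dck was called in both, with 147, 149, 154 and 156 CPM in T1792delta/delta, 101, 106, 91.3 and 88.0 CPM in T1792tg/tg and 123, 123, 121 and 109 CPM in wt cultures. It was higher in T1792delta/delta (0.34 ± 0.07, adjusted p = 8.7e-04) and lower in T1792tg/tg cultures (-0.30 ± 0.07, adjusted p = 0.0038) without overlap in either case. Its longest 3′ untranslated region holds no 7-base match to a seed of the cluster. Prps1 went the other way, with 155, 147, 164 and 154 CPM in T1792delta/delta (-0.23 ± 0.07, adjusted p = 0.018) and 232, 224, 198 and 192 CPM in T1792tg/tg (0.21 ± 0.07, adjusted p = 0.034), against 189, 182, 181 and 177 CPM in wt cultures. Both comparisons use the same wt libraries.

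In T1792delta/delta cultures Srm was also lower, with 442, 385, 489 and 487 CPM, against 574, 577, 549.7 and 534 CPM in wt cultures (-0.31 ± 0.08, adjusted p = 0.0044), as was Aprt (-0.24 ± 0.08). Cad was higher, with 765, 558, 779 and 652 CPM in T1792delta/delta and 557, 554, 552 and 470.2 CPM in wt cultures (0.37 ± 0.11, adjusted p = 0.018), without overlap. In T1792tg/tg cultures Dtymk had 126, 129.5, 111 and 108 CPM, against 144, 156, 145 and 147 CPM in wt cultures (-0.32 ± 0.09, adjusted p = 0.011). Bcat2 had 66.3, 71.6, 62.7 and 60.3 CPM in T1792tg/tg and 79.8, 74.0, 72.7 and 76.5 CPM in wt cultures (-0.22 ± 0.07, adjusted p = 0.042). Dtymk and Bcat2 were below all wt libraries in every T1792tg/tg library. The counts fell to 3 calls without T1792delta/delta replicate 1 or 2, and to 2 without T1792tg/tg replicate 3 or 4 or wt replicate 2 or 4. Cell division genes summed to 4389 to 4723 CPM in T1792delta/delta and 3648 to 3938 CPM in T1792tg/tg cultures, against 3642 to 4373 CPM in wt cultures, and their part was not tested.

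In naive cells the called differences between genotypes were at most a log2 fold change of -0.63, that of Mat2a in rescue against CD28-/- cells. The 39 genes together held 2330 to 2564 CPM as group means. In CD28-/- against wt cells 3 were called higher and 4 lower (7.42% and 7.34% of tested genes). Dhodh had 17.3, 17.6, 17.4 and 14.4 CPM in CD28-/- and 19.1, 20.6, 20.9 and 20.4 CPM in wt cells (-0.28 ± 0.07, adjusted p = 0.0052). Mthfd2 had 39.8, 41.3, 38.9 and 36.3 CPM in CD28-/- and 52.3, 43.6, 43.7 and 50.8 CPM in wt cells (-0.28 ± 0.07, adjusted p = 0.0060). Both were lower in every CD28-/- library. Gmps had 85.7, 92.8, 92.5 and 87.4 CPM in CD28-/- and 73.7, 74.2, 77.7 and 77.9 CPM in wt cells (0.24 ± 0.06, adjusted p = 0.0097). Psat1 had 45.6, 42.8, 37.7 and 41.1 CPM in CD28-/- and 35.0, 29.8, 31.8 and 38.7 CPM in wt cells (0.31 ± 0.08, adjusted p = 0.012), higher in CD28-/- cells with overlapping groups and opposite to its order at 24 h. The others called were Hprt, higher, and Impdh1 and Odc1, lower. Without wt replicate 2 the count was 3, without CD28-/- replicate 4 it was 4, and with both groups fitted alone it was 2, 1 higher and 1 lower, where 7.79% of tested genes were called. Cell division genes summed to 516 to 657 CPM in CD28-/- and 424 to 507 CPM in wt naive cells, with 2 of 8 called higher. Regulatory T cell markers summed to 136 to 159.9 CPM in CD28-/- and 216 to 265 CPM in wt naive cells, with 3 of 4 called lower and 1 higher. NK and CD8 T cell markers summed to 93.6 to 115 CPM in CD28-/- and 70.3 to 79.0 CPM in wt naive cells, with 1 of 6 called higher. Their part in these differences was not tested.

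Naive T1792delta/delta cells differed from wt in 2 genes, both lower (2.42% of tested genes were called lower and 2.76% higher, 5.19% in all). Impdh2 had 51.9, 57.7, 56.1 and 58.1 CPM in T1792delta/delta and 67.2, 65.5, 62.9 and 64.2 CPM in wt cells (-0.22 ± 0.05, adjusted p = 0.015). Phgdh had 29.8, 30.9, 26.04 and 33.1 CPM in T1792delta/delta and 34.4, 33.3, 33.5 and 43.8 CPM in wt cells (-0.27 ± 0.08, adjusted p = 0.029). The groups did not overlap for either gene, but the calls were lost without T1792delta/delta replicate 1, and the count was 1 without T1792delta/delta replicate 3 or wt replicate 4. With both groups fitted alone 0 of the 39 were called, where 4.41% of tested genes were. Red cell markers were higher in naive T1792delta/delta than in wt cells, as given above, and myeloid markers, 4 of 6 called higher, summed to 157 to 229 CPM in T1792delta/delta and 94.6 to 135 CPM in wt cells. The part of either was not tested.

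With the transgene, 11 of the 39 genes were called in naive cells on either background. In T1792tg/tg against wt cells 5 genes were called higher and 6 lower (10.5% and 12.6% of tested genes, 23.1% in all), and in rescue against CD28-/- cells 3 higher and 8 lower (7.84% and 8.92%, 16.8% in all). These comparisons share no library, and both set carriers of CD4cre and the Rosa26 transgene against mice with neither. Of the 11 genes called in each, 8 were called in the same direction in both, 72.7% of either list. Of all tested genes 1353 were, which is 42.8% of those called in T1792tg/tg against wt cells and 59.1% of those called in rescue against CD28-/- cells. With the compared groups fitted alone, 7 genes were called in T1792tg/tg against wt cells (2 higher, 5 lower), where 15.3% of tested genes were. In rescue against CD28-/- cells that fit called 3 (0 higher, 3 lower), where 6.5% of tested genes were called. In that fit 2 genes were in both lists in the same direction, 28.6% and 66.7% of them. Over all tested genes these shares were 25.2% and 59.8%, so the member overlap was near that of all genes. In the fit over all groups Impdh1, Mtap, Mthfd1, Bcat2 and Ppat were lower in both, and Psat1, Phgdh and Impdh2 were higher in both. The log2 fold changes of the same comparisons made at 24 h had a Pearson r of 0.267 over the 39 genes and 0.318 over all 13650 tested genes. In naive cells r was 0.656 over the 39 genes and 0.446 over all tested genes. These are descriptions across genes, which are not independent. NK and CD8 T cell markers summed to 84.5 to 129 CPM in T1792tg/tg and 70.3 to 79.0 CPM in wt cells, and to 120.0 to 133 CPM in rescue and 93.6 to 115 CPM in CD28-/- cells, with 2 of 6 called higher in each comparison. Regulatory T cell markers summed to 247 to 383 CPM in T1792tg/tg and 216 to 265 CPM in wt cells, and to 179 to 204 CPM in rescue and 136 to 159.9 CPM in CD28-/- cells, with 1 of 4 called higher in each. Their part in the naive differences was not tested.

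Impdh1 (chr6:29200436-29216364) had 123, 110.1, 101 and 96.0 CPM in T1792tg/tg and 162, 166, 149 and 142 CPM in wt cells (-0.53 ± 0.06, adjusted p = 2.0e-07). In rescue cells it had 109.5, 107 and 129.9 CPM, against 130.2, 138, 141 and 129 CPM in CD28-/- cells (-0.22 ± 0.07, adjusted p = 0.023). The groups separated in wt-background cells and overlapped on the CD28-/- background. Mtap (chr4:89137370-89181090) had 37.5, 38.5, 36.6 and 40.5 CPM in T1792tg/tg and 53.1, 53.1, 51.2 and 51.5 CPM in wt cells (-0.45 ± 0.06, adjusted p = 4.2e-07). It had 41.6, 39.2 and 42.7 CPM in rescue and 52.9, 54.8, 55.5 and 55.4 CPM in CD28-/- cells (-0.41 ± 0.06, adjusted p = 1.4e-05). Every transgenic library was below every library without the transgene. Mthfd1 had 54.6, 53.2, 53.4 and 57.8 CPM in T1792tg/tg and 73.7, 69.9, 72.1 and 71.6 CPM in wt cells (-0.39 ± 0.06, adjusted p = 8.0e-06). It had 47.1, 47.7 and 48.7 CPM in rescue and 70.6, 68.1, 64.0 and 62.9 CPM in CD28-/- cells (-0.47 ± 0.06, adjusted p = 3.1e-06), again a full separation.

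Seed matches in the genes lowered in both transgenic comparisons are shown, as DNA letters from the GENCODE vM21 transcripts with the match in capitals, 8 bases to each side. These genes were chosen for display after their values were seen. Impdh1 holds matches to miR-19a and miR-19b, and Bcat2 and Mtap each hold a match to miR-92a, while none was found in Mthfd1 or Ppat.
Impdh1 first site: tccatagaTTTGCACtacgggtt
Impdh1 further site: gctttaacTTTGCACactttggg
Bcat2 site: caagagaaGTGCAATagggaaag
Mtap site: ctggataaGTGCAATtgttactt
The Impdh1 matches begin at bases 92 and 689 of a region of 764 bases on chromosome 6, that of Bcat2 at base 336 of 612 on chromosome 7, and that of Mtap at base 1082 of 1575 on chromosome 4. A match is a description and not a measured site. The other genes with a match, listed above, were not called lower in both transgenic comparisons. In naive T1792delta/delta against wt cells Impdh1 stood at 0.17, Bcat2 at 0.02 and Mtap at 0.08, none of them called (adjusted p = 0.12, 0.90 and 0.47).

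Among the genes higher in both, Psat1 had 44.5, 47.2, 41.9 and 49.6 CPM in T1792tg/tg and 35.0, 29.8, 31.8 and 38.7 CPM in wt cells (0.44 ± 0.08, adjusted p = 1.9e-04), and 45.4, 60.8 and 52.9 CPM in rescue and 45.6, 42.8, 37.7 and 41.1 CPM in CD28-/- cells (0.34 ± 0.09, adjusted p = 0.0059). The T1792tg/tg and wt libraries separated, and the rescue and CD28-/- libraries overlapped. Phgdh was higher by 0.33 ± 0.07 in T1792tg/tg and 0.26 ± 0.08 in rescue cells, and Impdh2 by 0.18 ± 0.05 and 0.19 ± 0.06. Mat2a was called on the CD28-/- background alone, with 223, 203 and 224 CPM in rescue and 276, 351, 385 and 327 CPM in CD28-/- cells (-0.63 ± 0.12, adjusted p = 3.7e-04), and stood at -0.24 ± 0.11 (adjusted p = 0.11) in T1792tg/tg against wt cells. Whether the backgrounds differ in it was not tested. The count of calls in naive rescue against CD28-/- cells was 7 without CD28-/- replicate 2 or 3 or rescue replicate 1 or 3. At 24 h, in the fit over all groups, only Prps1 was called in both transgenic comparisons in the same direction. It was 1 of 4 genes (25%) called in T1792tg/tg against wt and of 16 (6.25%) in rescue against CD28-/- cultures. Over all tested genes the shares were 48.4% and 33%. With the compared groups fitted alone, 7 genes were in both lists in the same direction, 53.8% of 13 and 26.9% of 26. Over all tested genes that fit gave shares of 52% and 36%.

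**Figure D5:**
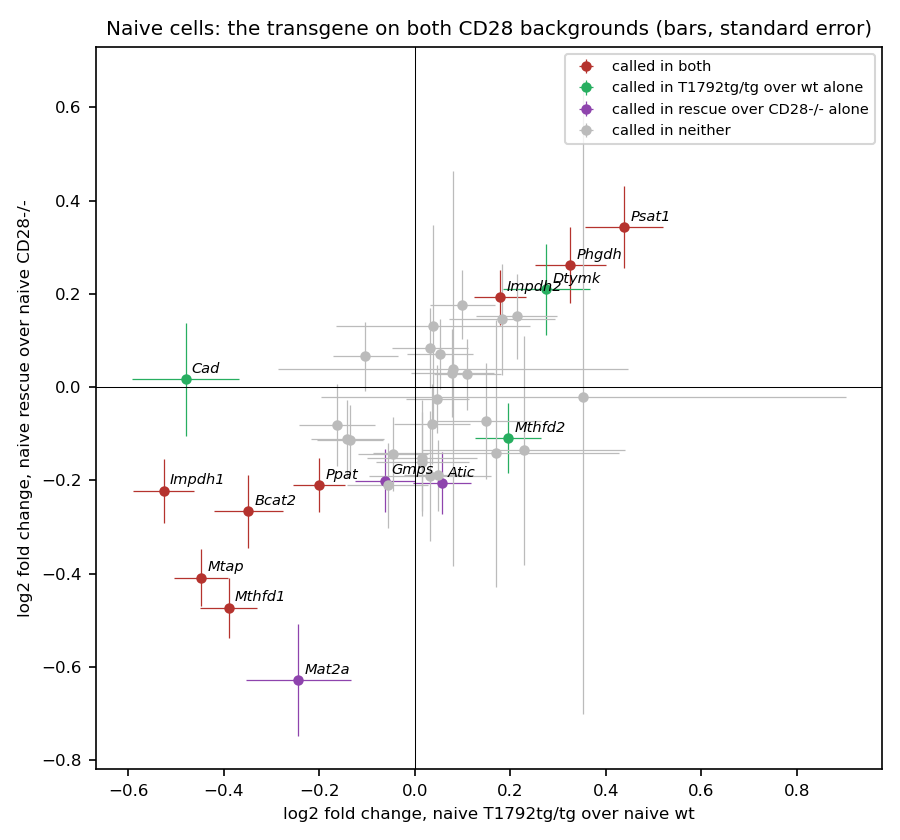
Log2 fold change of the 39 genes in naive T1792tg/tg over wt cells (x axis) and in naive rescue over CD28-/- cells (y axis), with standard errors as bars. The 8 red points, called in both comparisons, lie in the lower left (5 genes) and upper right (3 genes).

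The response itself was then compared between genotypes by an interaction term. The 24 h to naive difference was smaller in CD28-/- than in wt cells for 28 of 39 genes and larger for 0 (22.4% and 20.8% of tested genes, 43.3% in all), with a median of -0.59 over the 39 genes and -0.02 over all tested genes. Psat1 rose by 2.70 ± 0.08 in CD28-/- and by 3.84 ± 0.09 in wt cells, a difference of -1.14 ± 0.11 (adjusted p = 7.8e-10). Mthfd2 differed by -0.98 ± 0.10 (adjusted p = 6.1e-10), Prps1 by -0.86 ± 0.10 (adjusted p = 1.3e-08) and Dck by -0.86 ± 0.10 (adjusted p = 2.5e-08). None of the 3 pyrimidine synthesis genes was among the 28, and all 6 folate genes and all 3 serine genes were.

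In rescue against CD28-/- cells the response was larger for 11 genes and smaller for 0 (6.96% and 5.84% of tested genes). Prps1 differed by 0.78 ± 0.11 (adjusted p = 1.2e-05), Mthfd1 by 0.64 ± 0.09 (adjusted p = 1.3e-05), Mtap by 0.55 ± 0.08 (adjusted p = 4.4e-05) and Mthfd2 by 0.68 ± 0.10 (adjusted p = 4.4e-05). Mthfd1 and Mtap were lower in naive rescue cells and not called at 24 h (0.16 ± 0.06 and 0.14 ± 0.06), whereas Mthfd2 was higher at 24 h and not called in naive cells (-0.11 ± 0.08). In T1792tg/tg against wt cells 6 responses were larger and 3 smaller (8.59% and 7.41% of tested genes). Mtap differed by 0.47 ± 0.08 (adjusted p = 1.1e-04), Impdh1 by 0.44 ± 0.09 (adjusted p = 0.0011), Dtymk by -0.59 ± 0.12 (adjusted p = 0.0013) and Mthfd1 by 0.36 ± 0.08 (adjusted p = 0.0031). Mtap, Impdh1 and Mthfd1 were lower in naive T1792tg/tg than in naive wt cells (-0.45, -0.53 and -0.39). At 24 h they were not called (0.02, -0.09 and -0.04). Dtymk was higher in naive cells (0.28) and lower at 24 h (-0.32). In T1792delta/delta against wt cells 1 gene was called, Dck at 0.33 ± 0.10 (adjusted p = 0.048), against 3.15% of tested genes called higher and 2.95% lower. That call was lost without any of the 8 24 h libraries in turn, without naive T1792delta/delta replicate 1, 2 or 4 or naive wt replicate 3 or 4, and with the replicate number as a block within genotype (0 genes, adjusted p of Dck = 0.10).

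Of 92 further genes of the same pathways, 91 were in the table and 86 were tested. In wt cells 57 rose and 22 fell at 24 h, where 41.3% of tested genes rose and 43.9% fell. The dCMP deaminase Dctd rose by 4.30 ± 0.10, Ctps, which makes CTP, by 2.91 ± 0.07, and Eif5a, the protein that carries the spermidine-derived hypusine, by 2.79 ± 0.07. In CD28-/- against wt cultures 44 of the 86 were lower and 15 higher (27.8% and 23.7% of tested genes). Cth, which makes cysteine from cystathionine, had 0.502, 0.733, 0.603 and 0.604 CPM in CD28-/- and 7.92, 7.71, 7.18 and 6.25 CPM in wt cultures (-3.56 ± 0.28, adjusted p = 7.4e-13). Ctps stood at -0.83 ± 0.06 but its paralogue Ctps2 at 1.27 ± 0.08 (adjusted p = 1.0e-15). Nt5e, the surface nucleotidase CD73 that turns AMP into adenosine, was higher in CD28-/- cultures by 2.79 ± 0.19 (adjusted p = 2.1e-14). In rescue against CD28-/- cultures 15 of the 86 were higher and 13 lower (9.52% and 8.86% of tested genes). The polyamine genes Amd1, which makes decarboxylated S-adenosylmethionine, and Azin1, which shields ornithine decarboxylase from its antizyme, were lower in CD28-/- than in wt cultures by log2 fold changes of -0.97 ± 0.11 and -0.67 ± 0.07.

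Promoters were searched because the genes moved together. RefSeq windows from 250 bases before to 50 bases after the start site that table uses (GRCm38.p6) were at hand for 36 of the 39 genes. That site lay within 50 bases of the outermost annotated start for 25 of them and farther inside the gene for 11, by 8407 bases in Mthfd2 and 12510 in Gmps. The E-box CACGTG, bound by MYC and MAX, was found on either strand in 6 of 36 windows (16.7%), those of Atic, Dtymk, Tyms, Paics, Impdh2 and Sms, against 7.24% of all 27025 windows and 10.2% of the 10744 of tested genes. The letters CCAAT, the core that NF-Y binds, were in 19 of 36 (52.8%), against 37.9% of all windows and 39.2% of those of tested genes. The windows near the outermost start held 5 of the 6 E-box and 15 of the 19 CCAAT matches. The ATF4 element TGATGCAA was found in 0 of 36, against 0.929% of all windows and 0.633% of those of tested genes, and the E2F letters TTTGGCGC or TTTCGCGC in 0 of 36, against 0.833% and 1.63%. Matches this rare would seldom turn up in 36 windows, and other spellings of these elements were not searched. The counts of 0 therefore do not tell whether the genes lack them. A match is a description of letters, and none was tested as a site. The windows of Paics and Tyms, with the E-box in capitals, and of Psat1, with its 3 CCAAT matches on either strand in capitals, are printed because these genes fell without CD28 at 24 h.
Paics promoter, chr5:76951052-76951351, plus strand: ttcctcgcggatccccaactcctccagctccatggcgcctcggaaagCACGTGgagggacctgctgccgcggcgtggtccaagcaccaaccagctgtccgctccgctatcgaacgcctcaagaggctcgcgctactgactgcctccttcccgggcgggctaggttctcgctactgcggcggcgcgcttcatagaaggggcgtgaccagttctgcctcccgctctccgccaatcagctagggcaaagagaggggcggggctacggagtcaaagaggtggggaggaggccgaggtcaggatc
Tyms promoter, chr5:30073576-30073875, minus strand: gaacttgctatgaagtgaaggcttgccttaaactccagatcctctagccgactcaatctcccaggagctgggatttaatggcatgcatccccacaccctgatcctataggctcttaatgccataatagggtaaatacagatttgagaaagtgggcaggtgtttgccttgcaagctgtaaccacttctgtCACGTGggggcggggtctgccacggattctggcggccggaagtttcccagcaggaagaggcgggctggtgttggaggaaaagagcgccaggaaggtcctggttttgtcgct
Psat1 promoter, chr19:15925010-15925309, minus strand: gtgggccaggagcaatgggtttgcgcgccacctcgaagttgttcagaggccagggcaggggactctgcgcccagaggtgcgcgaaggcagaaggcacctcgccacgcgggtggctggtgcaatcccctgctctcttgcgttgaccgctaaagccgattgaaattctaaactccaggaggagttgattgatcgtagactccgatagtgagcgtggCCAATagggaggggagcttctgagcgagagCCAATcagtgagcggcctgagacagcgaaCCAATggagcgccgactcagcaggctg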

How the data were processed

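The authors deposited whole-number read counts per gene, by Entrez Gene number, with a length per gene that was used here only for levels per kilobase. The submitters' processing notes name, without their roles, STAR 2.5.2a, FastQC 0.11.5, edgeR 3.24.3 and R 3.5, and the build mm10. How reads were counted (tool, annotation, strand) is not given in the sources used here. Per the labels, libraries were stranded TruSeq, read as single ends of 76 nt.

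RefSeq names (GRCm38.p6) matched 23968 of 24028 identifiers. Counts were filtered by filterByExpr (minimum count 10), scaled by TMM and fitted in edgeR 4.0.16 (R 4.3.3) with a coefficient per group over all 38 libraries. Each contrast had a two-sided quasi-likelihood test, adjusted by Benjamini-Hochberg over 13650 genes and called below 0.05. The standard error is the log2 fold change over the root of F. The fit was tested on simulated data. Depth was 19427291 to 28020721 counts, and no 2 replicates agreed within sampling noise.

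The labels state no batch and no pairing. Replicate numbers pair naive and 24 h libraries of wt (correlations of deviations 0.145 to 0.418) and T1792delta/delta (0.210 to 0.382). In the other genotypes the same number was the best match for some libraries and not for others (-0.055 to 0.352). Pairing there is undetermined. Numbers did not pair libraries across genotypes (median r -0.001).

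Members and lists were chosen with earlier results of these data known. Any member could be named; values per library went to the smallest p, 8 genes in the wt response, CD28-/- against wt and rescue against CD28-/- at 24 h and up to 4 elsewhere, and 3 per list of other pathway genes could be named. The values of Tyms, Rrm2, Asns, Cad, Prps2 and others beyond that rule were chosen after they were seen. Alternatives were RLE factors, DESeq2 1.42.0, other filters, the compared groups alone, replicate blocks, a sex term and leaving out each library.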

Additional observations from a re-analysis of the deposited data

Results flagged for a closer look

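In 22 of 312 groups of 4 libraries, 1 library lay apart from the other 3 by Dixon's criterion, which chance gives in about 1 of 20 groups. Several shared a library. CD28-/- naive replicate 1 stood apart for Rrm2 (23.9 CPM), Tk1 (7.34 CPM) and Asns (4.82 CPM). The wt 24 h replicate 4 stood apart for Gart (510.4 CPM), Cad (470.2 CPM) and Asns (25.9 CPM), and wt naive replicate 4 for Phgdh (43.8 CPM) and Ppat (48.8 CPM). CD28-/- 24 h replicate 1 stood apart for Ppat (173 CPM) and Paics (409 CPM).

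Among T1792delta/delta libraries these were naive replicate 4 for Psph (25.6 CPM) and Mthfd1 (77.7 CPM), naive replicate 3 for Prps1 (58.0 CPM), 24 h replicate 4 for Mthfd1l (253 CPM) and 24 h replicate 1 for Odc1 (668 CPM). Among T1792tg/tg libraries they were naive replicate 3 for Prps2 (98.2 CPM) and Umps (89.3 CPM), naive replicate 4 for Mthfd2 (62.1 CPM), and 24 h replicate 1 for Prps2 (137 CPM) and Sms (183 CPM). The remaining values were Dhodh in CD28-/- naive replicate 4 (14.4 CPM) and Sms in wt naive replicate 1 (37.2 CPM).

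The response to culture differed between genotypes by the interaction term for 28 of the 39 genes in CD28-/- against wt cells (43.3% of all tested genes), with log2 differences of -0.98 for Mthfd2, -1.14 for Psat1, -0.86 for Prps1 and -0.86 for Dck. It differed for 11 genes in rescue against CD28-/- cells (12.8% of tested genes), with 0.78 for Prps1, 0.64 for Mthfd1, 0.55 for Mtap and 0.68 for Mthfd2. It differed for 1 gene in T1792delta/delta against wt cells (6.1% of tested genes), Dck at 0.33, a call lost under most of the other settings tried. It differed for 9 genes in T1792tg/tg against wt cells (16% of tested genes), with 0.47 for Mtap, 0.44 for Impdh1, -0.59 for Dtymk and 0.36 for Mthfd1.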

How the results depend on the processing

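The 84 fold changes of the 8 or 4 genes with the smallest p in each comparison were recomputed as 1396 alternative values. Of these, 1344 kept their direction and stayed called or not called, 52 lost the call and 0 changed sign. The genes were picked for small p in these same data, so the counts say nothing of the other genes named above. With the compared groups fitted alone, which leaves fewer libraries to estimate the spread, the count of called genes was 26 in place of 16 in rescue against CD28-/- cultures (32.1% of tested genes in place of 18.4%) and 13 in place of 4 in T1792tg/tg against wt cultures (22.3% in place of 12.5%). In naive cells that fit gave 2 in place of 7 in CD28-/- against wt (7.79% of tested genes in place of 14.8%), 3 in place of 11 in rescue against CD28-/- (6.5% in place of 16.8%), 0 in place of 2 in T1792delta/delta against wt (4.41% in place of 5.19%) and 7 in place of 11 in T1792tg/tg against wt (15.3% in place of 23.1%). Without a filter on low counts, 2 genes were called in T1792tg/tg against wt cultures. The single interaction call in T1792delta/delta against wt cells was 0 with DESeq2's size factors, without a filter, with the compared groups alone, with the replicate block over all groups and with the block within genotype. The replicate block moved no other count of calls by over 1.5 times, and the cause of these changes was not tested.

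Leaving out each library in turn gave 8 to 17 calls in rescue against CD28-/- cultures, 3 to 5 in T1792delta/delta and 2 to 3 in T1792tg/tg against wt cultures. In naive cells it gave 3 to 9 in CD28-/- against wt, 7 to 12 in rescue against CD28-/-, and 0 to 2 in T1792delta/delta and 8 to 12 in T1792tg/tg against wt. For the interactions it gave 26 to 29 calls in CD28-/- against wt, 8 to 14 in rescue against CD28-/-, 0 to 1 in T1792delta/delta and 7 to 9 in T1792tg/tg against wt.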
